A study of Mus musculus with 12 samples.

Results

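The granzymes and cytotoxic effectors described here are the 10 mouse genes Gzma, Gzmb, Gzmc, Gzmd, Gzme, Gzmf, Gzmk, Prf1, Nkg7 and Ifng. They were picked by name, with the comparison of old and young tumors in these same libraries already known, so their old over young values are a description and no test is read from them. All 10 were found among the 47643 genes of the deposited table, and 6 of them passed the filter on low counts (Gzma, Gzmb, Gzmc, Gzmd, Gzme and Nkg7). The libraries came from 6 tumor pieces labelled Old tumor and 6 labelled Young tumor, all pancreatic tumors of KPC4662, a cell line from a mouse pancreatic cancer. The labels give the cell type as epithelial. They do not state the age, strain or sex of the mice, how the line was implanted, whether any agent was given, or whether the pieces came from separate mice, so an error here measures the spread between pieces. Both ages carried the same line. Bulk poly(A) RNA was sequenced, with 17.8M to 24.1M counts in a library. On the first 2 principal components of all tested genes (18.7% and 16.4% of the variance) Old tumor 1 lay farthest out on the first, at −55.0, and Old tumor 5 on the second, at −43.9, so results that rest on these libraries are also given without them.

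Granzymes are serine proteases that cytotoxic T cells and natural killer cells store in granules. On contact with a target cell the granules are released, perforin (Prf1) opens pores in the target's membrane, and the granzymes enter and cut proteins there. Nkg7 encodes a granule membrane protein that aids this release, and Ifng encodes interferon gamma, a cytokine secreted by the same cells that raises antigen presentation in its targets. In the mouse, Gzma and Gzmk lie near each other on chromosome 13, while Gzmb, Gzmc, Gzmd, Gzme and Gzmf share a cluster on chromosome 14 with the mast cell protease genes.

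The cluster granzymes are close copies, which bears on how far their values can be told apart. The windows just upstream of 4 of these genes align without a gap over 88 bases (RefSeq, GRCm38.p6, the assembly of mm10, minus strand). Each is printed 5′ to 3′, and the capitals mark 8 bases at the position where Gzmf and Gzmc hold TGACGTCA, the cyclic AMP response element (CRE).
Gzme: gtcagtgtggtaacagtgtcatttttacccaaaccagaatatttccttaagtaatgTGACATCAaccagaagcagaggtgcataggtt
Gzmd: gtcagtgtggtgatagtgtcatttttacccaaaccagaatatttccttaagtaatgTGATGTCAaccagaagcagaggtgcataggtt
Gzmf: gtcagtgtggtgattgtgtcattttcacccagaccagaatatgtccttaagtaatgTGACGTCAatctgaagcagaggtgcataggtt
Gzmc: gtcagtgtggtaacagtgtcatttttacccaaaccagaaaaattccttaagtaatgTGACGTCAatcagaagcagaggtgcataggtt
These windows lie at chr14:56120656-56120743 for Gzme, chr14:56132623-56132710 for Gzmd, chr14:56211458-56211545 for Gzmf and chr14:56234683-56234770 for Gzmc. Gzme shared 84 of its 88 bases with Gzmd, 84 with Gzmc and 79 with Gzmf.

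The windows upstream of the 2 granzymes best known from cytotoxic lymphocytes, Gzmb and Gzma, are shown for contrast, each with the 100 bases that end at the gene's start (RefSeq, GRCm38.p6, minus strand, chr14:56262335-56262434 and chr13:113100982-113101081). Capitals mark matches to the AP-1 letters TGANTCA and to the RUNX letters TGTGGTT or their reverse complement.
Gzmb: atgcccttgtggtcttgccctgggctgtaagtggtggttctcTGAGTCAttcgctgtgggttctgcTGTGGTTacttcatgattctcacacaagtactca
Gzma: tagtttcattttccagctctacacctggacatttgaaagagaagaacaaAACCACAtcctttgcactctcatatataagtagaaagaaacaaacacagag
Both strands of the 250 bases upstream of each gene were searched, and matches may overlap. The AP-1 letters occurred in Gzmb alone among the 10 genes, and in 6.75% of 32851 RefSeq promoters. The CRE letters occurred in Gzmc and Gzmf and in 1.55% of the promoters. The RUNX letters occurred in Gzma, Gzmb, Gzmc, Gzmd, Gzme and Gzmf and in 4.40% of the promoters. The T-box letters AGGTGTGA occurred in Nkg7 and in 1.12% of the promoters. A match is a string of letters and not evidence that a factor bound there.

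The likeness runs through the transcripts too. Shown next are 39 coding bases around the codon of the active-site serine, in capitals, for a pair of cluster granzymes and for the pair on chromosome 13 (GENCODE M21 transcripts, sense strand).
Gzme: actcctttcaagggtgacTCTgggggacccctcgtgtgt
Gzmd: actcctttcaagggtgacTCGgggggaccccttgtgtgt
Gzma: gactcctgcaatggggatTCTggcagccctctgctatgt
Gzmk: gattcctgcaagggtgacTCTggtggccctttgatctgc
Gzme and Gzmd had the same base at 37 of these 39 positions, and Gzma and Gzmk at 29. Over 916 aligned transcript bases, Gzmd and Gzme were 95.0% identical. Of all 50-base windows, 21.5% in Gzmd and 19.1% in Gzme also occurred in another of Gzmb, Gzmc, Gzmd, Gzme, Gzmf and Gzmg, against 4.14% in Gzmc and 0 in Gzmb. The deposited expected counts were not whole numbers in 11 of 12 libraries for Gzme and in 10 for Gzmd, so reads were shared between genes there, and the split of Gzmd, Gzme, Gzmf and Gzmg is uncertain. Gzma, Gzmb, Gzmc, Gzmk, Prf1, Nkg7 and Ifng had whole counts in all 12 libraries.

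Gzme was the most abundant granzyme transcript in all 12 libraries. In TPM, which corrects for transcript length and so allows genes to be compared, the mean level over the 12 libraries was 30.1 for Gzme, 9.88 for Gzma, 7.43 for Nkg7, 2.42 for Gzmc, 0.868 for Gzmd, 0.823 for Gzmb, 0.793 for Gzmk, 0.39 for Prf1, 0.262 for Gzmf and 0.245 for Ifng. Gzme lay above Gzma in 12 of 12 libraries, and Nkg7 above Gzmc and Gzmc above Gzmd in 11. Other neighbours in this order changed places between libraries, with Gzma above Nkg7 in 7 of 12, Gzmd above Gzmb in 5, Gzmb above Gzmk in 6 and Gzmf above Ifng in 6. Perforin, which lets granzymes into target cells, was among the 3 least abundant of the 10.

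**Figure D1:**
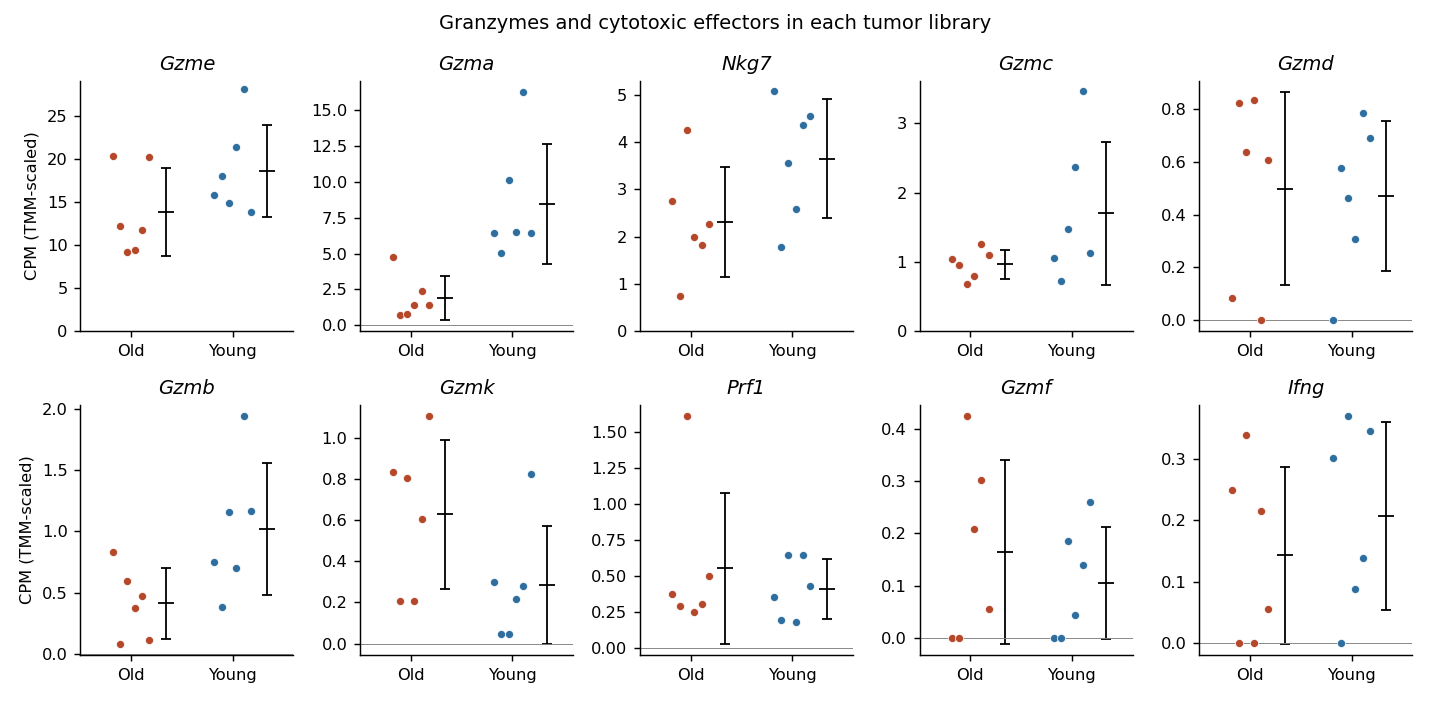
CPM (counts scaled to library size, with TMM factors) of each of the 10 genes in the 6 Old tumor libraries (left in each panel) and the 6 Young tumor libraries (right), 1 point per library, with the mean and SD as a bar. The ages are apart in the Gzma panel, with old libraries from 0.702 to 4.79 CPM and young libraries from 5.01 to 16.2 CPM. In the other 9 panels they overlap. How many of all tested genes keep the ages apart was not counted.

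Gzma encodes granzyme A, a protease of tryptase type. Its level was 4.79, 0.702, 0.764, 1.38, 2.38 and 1.44 CPM in Old tumor 1 to 6, against 6.43, 5.01, 10.1, 6.53, 16.2 and 6.45 CPM in Young tumor 1 to 6. All 6 old libraries lay below all 6 young ones on this scale, though in TPM Old tumor 1, at 9.67, stood above Young tumor 2, at 9.47. How many of all tested genes keep the ages apart in this way was not counted. Old over young, this made a log2 fold change of −2.14, with an SE of 0.45 and an adjusted p of 0.035 in edgeR's quasi-likelihood test. At the threshold of 0.05, Gzma was called and the other 5 members tested were not. Of all 16013 genes tested, 2.26% were called in either direction and 1.47% were lower in old tumors. Since this contrast was known when the genes were picked, the count is given as it stands. In bulk tissue such as this, fewer cells that express a gene and less RNA of it per cell cannot be told apart.

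The size of the Gzma difference varied less than its call. Without each library in turn the log2 fold change lay between −2.69 and −1.85, and the edgeR adjusted p between 0.0098 and 0.089. The call was lost in 10 of 12 such fits and was kept without Old tumor 1 and without Young tumor 3. With both Old tumor 1 and Old tumor 5 left out, the fold change of Gzma was −2.98 in log2 units, with an SE of 0.39 (edgeR adjusted p = 0.00013). These libraries held the highest Gzma levels among the old ones (4.79 and 2.38 CPM), so leaving them out widens the difference by construction. The setting was also chosen after seeing the data, so this value adds no support.

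Gzmb encodes granzyme B, which cuts after aspartate and activates caspases. It was read at 0.833, 0.0825, 0.594, 0.375, 0.475 and 0.11 CPM in Old tumor 1 to 6, against 0.753, 0.385, 1.16, 0.702, 1.94 and 1.17 CPM in Young tumor 1 to 6. All 6 old libraries lay under the young median of 0.955 CPM, but the ages overlapped, with Old tumor 1 above Young tumor 1, 2 and 4. The log2 fold change was −1.28 (SE 0.50), from 58 counts in all old libraries together and 133 in all young ones.

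Nkg7 was read at 2.75, 0.743, 4.24, 2.001, 1.81 and 2.26 CPM in Old tumor 1 to 6, against 5.07, 1.78, 3.56, 2.59, 4.35 and 4.54 CPM in Young tumor 1 to 6. Old tumor 3 was the highest old library and stood above Young tumor 2, 3 and 4, so the ages overlapped. The log2 fold change was −0.66 (SE 0.35).

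Gzme, whose role is far less studied than that of granzymes A and B, was read at 20.4, 12.2, 9.21, 9.46, 11.8 and 20.3 CPM in Old tumor 1 to 6, against 15.8, 18.01, 14.8, 21.4, 28.1 and 13.8 CPM in Young tumor 1 to 6. The median was 11.98 CPM in old and 16.9 CPM in young libraries. Old tumor 1 and Old tumor 6 lay above the young median and the other 4 old libraries below it. The log2 fold change was −0.43 (SE 0.24). With the expected counts of Gzmc, Gzmd, Gzme, Gzmf and Gzmg summed, so that the split of shared reads no longer matters, it was −0.41 (SE 0.22).

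Gzmc ran from 0.679 to 1.25 CPM in old libraries (median 0.995) and from 0.722 to 3.47 CPM in young libraries (median 1.302). Its coefficient of variation was 21.6% in old and 60.6% in young libraries. Young tumor 5 and Young tumor 4 were the highest, and every old library lay below the young median (log2 fold change −0.81, SE 0.36). Gzmd ran from 0 to 0.834 CPM in old and from 0 to 0.787 CPM in young libraries, with 1 library of each age listed at 0 (Old tumor 5 and Young tumor 1). Its log2 fold change was 0.07 (SE 0.72), a standard error too wide to give a direction, and its reads are shared with Gzme.

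Gzmk, Prf1, Gzmf and Ifng did not pass the filter, and their fold changes come from a fit without it. Gzmk encodes granzyme K, another tryptase type protease, known from memory T cells. It was read at 0.833, 0.206, 0.806, 0.208, 0.605 and 1.10 CPM in Old tumor 1 to 6, against 0.301, 0.0481, 0.0463, 0.219, 0.278 and 0.822 CPM in Young tumor 1 to 6. The ages overlapped through Young tumor 6, the highest young library, and through Old tumor 2 and Old tumor 4, the lowest old ones. The log2 fold change was 1.09 (SE 0.62), from 83 counts in old and 38 in young libraries.

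Prf1 rested on 76 counts in old and 53 in young libraries, of which 38 came from Old tumor 3 alone. That library stood at 1.61 CPM, against 0.25 to 0.497 CPM in the other old libraries and 0.175 to 0.648 CPM in young ones. The log2 fold change was 0.42 (SE 0.53). Gzmf had 23 counts in old and 14.0 in young libraries, with 2 libraries of each age at 0 (log2 fold change 0.60, SE 0.96). Ifng had 20 counts in old and 27 in young libraries, with 2 old and 1 young library at 0 (log2 fold change −0.52, SE 0.85). No difference between the ages in these 3 genes was detectable at this depth.

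The granzymes took different shares of the granzyme transcripts. Of the summed TPM of the 7 granzymes listed, Gzme took 75.3% ± 5.33 in old and 61.6% ± 7.94 in young libraries (SD, n = 6 each). Gzma took 10.3% ± 5.42 in old and 28.4% ± 6.44 in young libraries, and Gzmk took 3.09% ± 1.56 in old and 0.968% ± 1.22 in young libraries. The sum itself was 36.0 ± 12.3 TPM in old and 54.4 ± 16.2 TPM in young libraries. Shares of 1 sum depend on each other, so the larger share of Gzme in old libraries is not a higher level. Gzme averaged 27.3 TPM in old and 33.0 TPM in young libraries, and Gzma 3.92 and 15.8 TPM. The ratio of Gzmk to Gzma was 0.147, 0.291, 0.887, 0.148, 0.215 and 0.648 in Old tumor 1 to 6, against 0.0398, 0.00845, 0.00448, 0.0286, 0.0111 and 0.119 in Young tumor 1 to 6. The ages did not overlap in this ratio, which was formed after both genes' values were seen and in which Gzmk rests on as few as 1 count in a library. Its denominator, Gzma, kept the ages apart in CPM by itself. How many gene pairs keep the ages apart was not counted.

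T cells are a main source of Gzma, Gzmb and Nkg7, so the members were set beside T cell markers. In edgeR none of the 12 T cell markers was called, 5 had an unadjusted p under 0.05 (as had 21.1% of all 16013 genes tested), and all 12 had a log2 fold change below 0 (median −0.81, against 0.03 for all 16013 genes). Their summed level ran from 16.7 to 49.0 CPM in old libraries (median 22.2) and from 30.4 to 62.9 CPM in young libraries (median 50.7). Cd8a, the coreceptor of cytotoxic T cells, averaged 2.59 CPM in old and 6.29 CPM in young libraries (log2 fold change −1.28, SE 0.42, edgeR adjusted p = 0.105). Cd4 was at −0.75 (SE 0.25, edgeR adjusted p = 0.108), Cd3d at −1.24 (SE 0.44, adjusted p = 0.132) and Cd3e at −0.88 (SE 0.40, adjusted p = 0.223). DESeq2 called 3 of the 12, Cd8a, Cd4 and Cd3d, beside 9.59% of all genes to which it gave an adjusted p. Without Old tumor 1 and Old tumor 5 edgeR called Cd8a alone, beside 4.55% of all genes tested. Of the old libraries, Old tumor 1 had the highest mean log2 CPM over the 12 markers (1.87), so leaving it out lowers these markers in old tumors. That setting was also chosen after seeing the data, so the call adds no support. The part of these markers in the Gzma difference was not tested.

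Relative to those markers, Gzma and Gzmb lay differently. Gzma minus the T cell score (the mean log2 CPM of the 12 markers) was −0.19 ± 0.91 in old and 1.27 ± 0.60 in young libraries (SD, n = 6 each). Old tumor 3, with the second highest T cell score among old libraries, had the lowest value, −1.92. The same difference for Gzmb was −2.13 ± 0.45 in old and −1.71 ± 0.51 in young libraries, and for Nkg7 it was 0.21 ± 0.50 in old and 0.11 ± 0.30 in young libraries. Per Cd8a transcript in TPM, Gzmb stood at 0.325 ± 0.20 in old and 0.312 ± 0.116 in young libraries, and Gzma at 2.66 ± 1.21 in old and 4.61 ± 1.86 in young libraries. The ages overlapped in each of these measures.

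**Figure D2:**
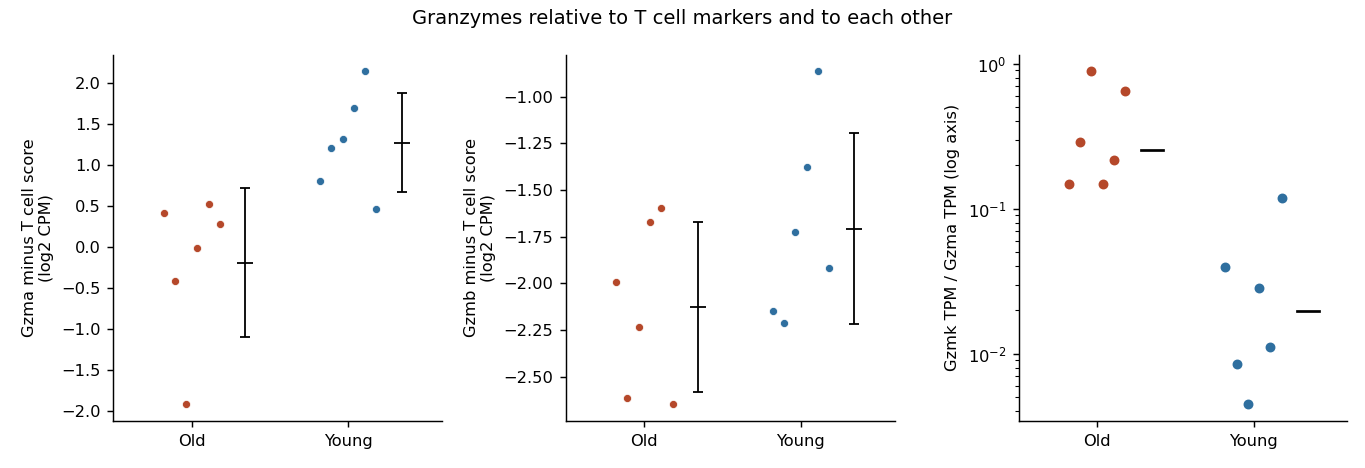
Gzma and Gzmb minus the T cell score (log2 CPM, 1 point per library, mean and SD as a bar) and the ratio of Gzmk to Gzma (TPM, log axis, median as a line), with Old tumor left and Young tumor right. The Gzmk to Gzma ratio runs from 0.147 to 0.887 in old libraries and from 0.00448 to 0.119 in young libraries. It was formed after both genes' values were seen, and Gzma kept the ages apart in CPM by itself.

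Within an age the comparison that led to the choice of genes does not enter, so the members were set against marker scores there. In all, 24 relations of the 6 tested members with the T cell and natural killer cell scores were computed, each over 6 libraries of 1 age with two-sided exact permutation tests and Benjamini-Hochberg adjustment. Of these, 18 were positive, and 2 passed an adjusted p of 0.05, both for Gzmb in old libraries. Gzmb and the T cell score in old tumors had r = 0.90 and rho = 1.0 (exact permutation p = 0.0028 for each, the smallest the design can give, adjusted p = 0.033 for each), and r was 0.96 without the 2 libraries farthest from the median score. Gzmb and the natural killer cell score in old tumors had r = 0.88 and rho = 1.0 (exact permutation p = 0.0028 for each, adjusted p = 0.033 for each), and r was 0.98 without the 2 farthest. That score is the mean log2 CPM of 8 markers and leaves out Ncr1 and Klrb1c, which failed the filter. It holds Fcgr3, at 65.1 CPM in old libraries against 0.136 CPM for Ncr1, so it may not follow natural killer cells alone. The order of the 6 old libraries was thus the same for Gzmb as for either score, though Old tumor 2 and Old tumor 6 both had 2 Gzmb counts and were ordered by library size alone (0.0825 and 0.11 CPM). Since both scores ordered the old libraries alike, these are not 2 separate results, and the 24 relations share libraries and scores. On log2(TPM + 1) neither of these relations passed.

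The same relation in young tumors did not pass. For Gzmb and the T cell score in young tumors r was 0.70 (exact permutation p = 0.147, adjusted p = 0.353), rho was 0.60 (exact permutation p = 0.242, adjusted p = 0.483), and r was −0.09 without the 2 farthest libraries, so it rested on those libraries. For Nkg7 and the T cell score r was 0.78 in old tumors (exact permutation p = 0.036, adjusted p = 0.173; rho 0.71, exact permutation p = 0.136, adjusted p = 0.467), and 0.67 without the 2 farthest. In young tumors it was 0.85 (exact permutation p = 0.097, adjusted p = 0.267; rho 0.66, exact permutation p = 0.175, adjusted p = 0.483), and −0.17 without them. Whether the relations differ between the ages was not tested.

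Gzma and Gzme gave no relation with T cell markers that passed. For Gzma and the T cell score in old tumors r was 0.47 (exact permutation p = 0.336, adjusted p = 0.657; rho 0.60, exact permutation p = 0.242, adjusted p = 0.483), and 0.93 without the 2 farthest. In young tumors r was 0.42 (exact permutation p = 0.464, adjusted p = 0.696; rho 0.09, exact permutation p = 0.919, adjusted p = 1.0), and −0.50 without them. For Gzme in old tumors r was 0.07 (exact permutation p = 0.978, adjusted p = 0.986; rho −0.03, exact permutation p = 1.0, adjusted p = 1.0), and −0.34 without the 2 farthest. In young tumors r was −0.40 (exact permutation p = 0.383, adjusted p = 0.657; rho −0.83, exact permutation p = 0.058, adjusted p = 0.467), and −0.66 without them. Gzma was also set against the natural killer cell score, and neither relation passed. In old tumors r was 0.81 (exact permutation p = 0.078, adjusted p = 0.267; rho 0.60, exact permutation p = 0.242, adjusted p = 0.483), and −0.31 without the 2 farthest. In young tumors r was 0.66 (exact permutation p = 0.047, adjusted p = 0.189; rho 0.60, exact permutation p = 0.242, adjusted p = 0.483), and 0.67 without them.

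**Figure D3:**
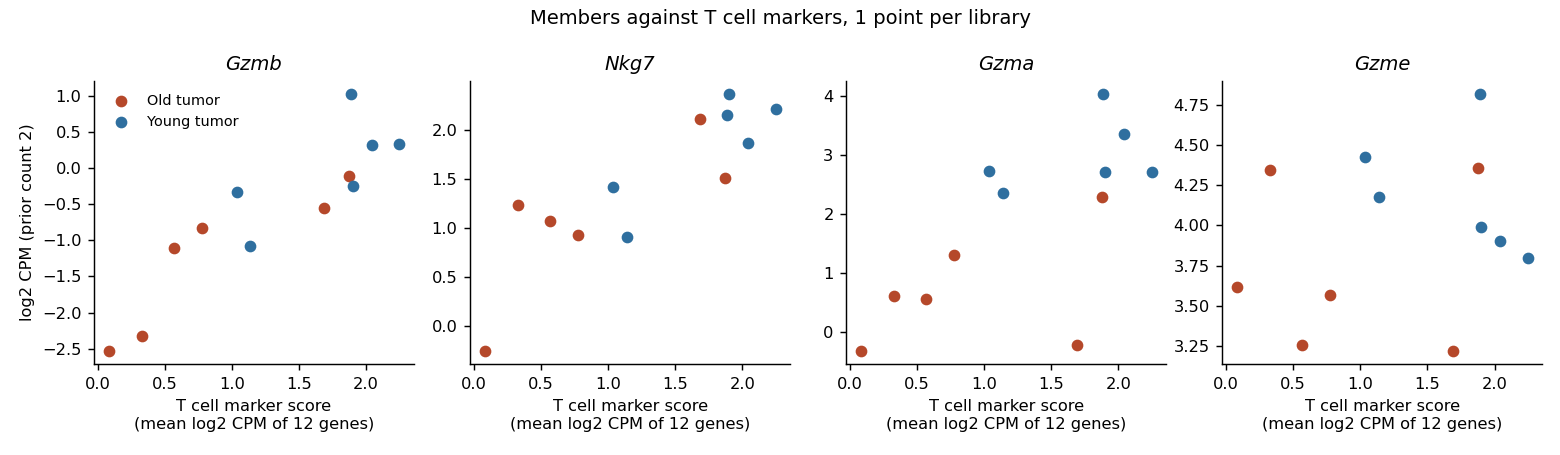
log2 CPM of Gzmb, Nkg7, Gzma and Gzme against the T cell score (mean log2 CPM of 12 markers), 1 point per library, with Old tumor and Young tumor in different colors. The old libraries keep 1 order in the Gzmb panel (rho = 1.0), and in the Gzma panel Old tumor 3 stands low at a T cell score of 1.69.

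Markers of natural killer cells, the other main source, were low in part. Of 12 markers 8 were tested in edgeR and none was called, 4 had an unadjusted p under 0.05 (21.1% of all genes had), and DESeq2 called none. Of the 8, 5 lay below 0 and 3 above it (Klrk1, Klrc2 and Fcgr3), with a median log2 fold change of −0.25. Without Old tumor 1 and Old tumor 5, edgeR called Klri2 and Klrd1, beside 4.55% of all genes tested. Old tumor 1 had the highest natural killer cell score of the old libraries (2.90), so leaving it out lowers these markers in old tumors. Ncr1, a defining receptor of these cells, averaged 0.136 CPM in old and 0.0385 CPM in young libraries, and Klrb1c averaged 0.282 CPM in old and 0.474 CPM in young libraries. Both failed the filter. The 3 tested markers with the smallest p were Klre1 (−1.29, SE 0.48, edgeR adjusted p = 0.149), Klri2 (−1.81, SE 0.72, adjusted p = 0.172) and Klrd1 (−1.21, SE 0.48, adjusted p = 0.172). The natural killer cell score also holds Klrc1, at 38.5 CPM in old and 49.6 CPM in young libraries, far above its partner Klrd1 at 1.01 CPM in old and 2.33 CPM in young libraries.

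The tissue matched its label in its epithelial markers. Krt8 averaged 1711 CPM in old and 1754 CPM in young libraries, and Krt18 was at a log2 fold change of −0.22 (SE 0.11) and Epcam at −0.38 (SE 0.38). Neither edgeR nor DESeq2 called any of the 8 epithelial markers, of which 1 had an unadjusted edgeR p under 0.05, or of the 5 pan-leukocyte markers, of which none had. Without Old tumor 1 and Old tumor 5, edgeR called the pan-leukocyte marker Coro1a, beside 4.55% of all genes tested. These libraries had the highest mean log2 CPM over the 5 pan-leukocyte markers among the old ones (6.43 and 5.92). Leaving them out thus lowers these markers in old tumors. Ptprc, the leukocyte antigen CD45, averaged 48.9 CPM in old and 51.3 CPM in young libraries (log2 fold change −0.07, SE 0.20), a sign that turned on the TPM scales (0.066 and 0.070). Other cell types that could hold granule proteases were described the same way, and edgeR called none of their tested markers, with an unadjusted p under 0.05 for 2 mast cell, 1 plasmacytoid dendritic cell and 0 acinar cell markers. DESeq2, run without that filter, called 2 acinar cell markers, Ctrb1 and Prss2, both lower in old tumors, and none of the other kinds. Ctrb1 averaged 0.271 CPM in old and 5.81 CPM in young libraries, and Prss2 averaged 0.284 CPM in old and 1.999 CPM in young libraries. The median log2 fold change was −0.87 for 7 mast cell markers, −0.09 for 6 plasmacytoid dendritic cell markers and −0.44 for 2 acinar cell markers. The summed mast cell markers ran from 7.89 to 31.4 CPM in old libraries and from 12.8 to 34.6 CPM in young libraries. The 10 acinar markers summed to 12.3 to 20.1 CPM in old libraries (median 15.04) and 11.6 to 39.7 CPM in young libraries (median 30.2). Their part in the granzyme values was not tested.

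The chromosome 14 cluster was read as a whole, because Gzme sits at the edge between the granzyme and the mast cell protease genes. Mcpt8, a protease of basophils, lies 35.5 kb below Gzme on the coordinate axis and averaged 187 TPM in old and 270 TPM in young libraries. The mucosal mast cell protease genes lay farther out, with Mcpt1 at 133 TPM in old and 186 TPM in young libraries and Mcpt2 at 159 TPM in old and 181 TPM in young libraries. The listed mast cell markers were far lower. Cpa3 averaged 1.35 TPM in old and 2.45 TPM in young libraries, and Fcer1a 0.478 and 1.2 TPM. Mcpt4, the highest of them, averaged 11.3 and 15.1 TPM. Its expected counts were not all whole numbers (149.81 in Young tumor 1), so some of its reads were shared between genes and its level is uncertain. Which cells held the abundant protease transcripts was not tested. Between Mcpt8 and Gzme, the neutrophil protease gene Ctsg averaged 0.0417 TPM in old and 0.0267 TPM in young libraries. On the other side of Gzme, at 27.3 TPM in old and 33.0 TPM in young libraries, all genes up to Gzmb lay below 3 TPM on average in either age. So the abundant genes of the cluster lay on 1 side, from Mcpt1 to Gzme, with Mcpt9 and Ctsg low among them.

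**Figure D4:**
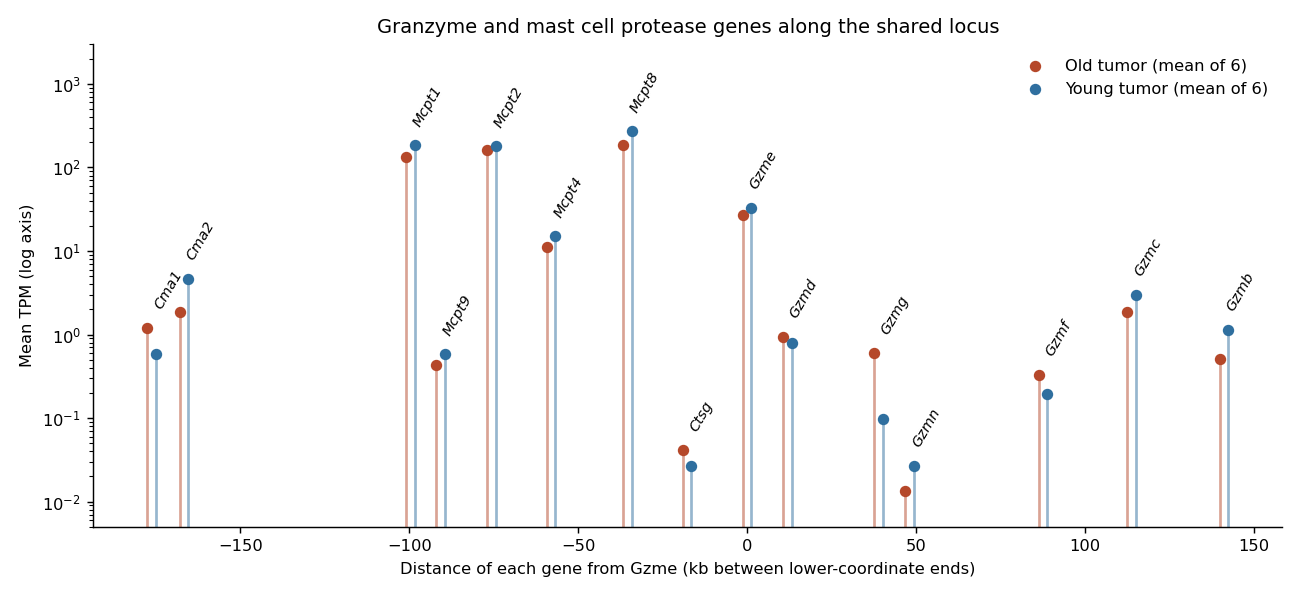
Mean TPM (log axis) of the granzyme and mast cell protease genes of the chromosome 14 cluster against their distance from Gzme in kb, in Old tumor (left point of each pair) and Young tumor libraries (right point), 6 libraries each. Mcpt1, Mcpt2, Mcpt8 and Gzme stand highest, and Gzmd to Gzmb stand below 3 TPM.

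In edgeR none of the 7 tested genes in the list of other granzymes and cluster neighbours was called, 3 had an unadjusted p under 0.05 (21.1% of all genes had), and all 7 had a log2 fold change below 0 (median −0.62). The 3 with the smallest p were Mcpt8 (−0.67, SE 0.20, edgeR adjusted p = 0.081, the 1 gene of the list called by DESeq2), Mcpt1 (−0.63, SE 0.23, adjusted p = 0.137) and Cma2 (−1.46, SE 0.65, adjusted p = 0.220). Expected counts of Cma2 were not whole numbers (32.96 in Young tumor 1), so some of its reads were shared between genes. Gzmg did not pass the filter, and averaged 0.595 TPM in old and 0.0983 TPM in young libraries, with reads that can be shared with Gzmd and Gzme.

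The genes whose levels varied most like a member were ranked for Gzma, Gzmc, Gzme and Nkg7, the tested members of at least 1 CPM on average, and shared no name among the 4. Likeness is Pearson's r of log2 CPM over the 12 libraries after each age's mean was subtracted, ranked among 12985 genes, and is a description with no p. For Gzma they were Spns3 (0.89), Atg4a (0.86), Sp140 (0.84), Rpl39-ps (0.84) and Gpr146 (0.84). For Nkg7 they included Dtx3l (0.91), Tapbpl (0.91), Tgtp1 (0.90) and Parp12 (0.90), all known as interferon-induced genes. For Gzme they were Ccng2 (0.90), Micu2 (0.88), Tgds (0.87), Ptgs2 (0.87) and Pgf (0.83). For Gzmc they were Arhgef3 (0.93), Rgs3 (0.87), Brwd3 (0.85), Trim40 (0.84) and Emc9 (0.83). Neither another member nor a T cell marker was among the genes named here, but a marker can vary much like a member and still rank lower. By the same measure, r with Cd3e and with Cd8a was 0.87 and 0.79 for Nkg7 and 0.53 and 0.60 for Gzma. It was 0.18 and 0.11 for Gzmc and −0.006 and 0.14 for Gzme. Of the tested members not ranked, Gzmb had 0.87 and 0.78, and Gzmd had −0.09 and −0.26.

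The pathway around the members was followed from granule to target through fixed lists. Of 15 tested genes for granule processing and exocytosis edgeR called none, with 2 at an unadjusted p under 0.05, and DESeq2 called 1, Lyst (median log2 fold change 0.06). Lyst, which governs the size of lytic granules, was at 0.65 (SE 0.16, edgeR adjusted p = 0.053), the cathepsin gene Ctsl at −0.32 (SE 0.12, adjusted p = 0.15) and the granule sorting adaptor gene Ap3b1 at 0.16 (SE 0.07, adjusted p = 0.239). In young libraries Lyst, Ctsl and Ap3b1 averaged 8.60, 623 and 63.1 CPM, against 6.29 CPM for Cd8a. The values of this list may thus not follow cytotoxic cells alone, and which cells held these transcripts was not tested. Without Old tumor 1 and Old tumor 5, 2 genes of this list were called, Lyst among them, beside 4.55% of all genes tested. Of 6 tested granzyme inhibitors edgeR called none, with 1 at an unadjusted p under 0.05, and DESeq2 called none (median −0.06). The granzyme B inhibitor gene Serpinb9 was at −0.20 (SE 0.09, edgeR adjusted p = 0.216), Serpinb6b at −0.17 (SE 0.08, adjusted p = 0.237) and Serpina3n at 1.20 (SE 0.73, adjusted p = 0.362). The Serpina3n value rested on Old tumor 1 and Old tumor 5, without which it was −0.34.

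The next list held granzyme substrates and parts of complexes on which granzymes act. Of its 17 tested genes, 2 fell and none rose at an edgeR adjusted p under 0.05 (median −0.05). Among all genes tested, 1.47% were called lower in old tumors. Of the 17, 5 had an unadjusted p under 0.05, beside 21.1% of all genes, and DESeq2 called 4, adding Set and Apex1. Nme1 averaged 68.4 CPM in old and 104 CPM in young libraries (log2 fold change −0.60, SE 0.10, edgeR adjusted p = 0.024). Hmgb2 averaged 71.4 CPM in old and 112 CPM in young libraries (−0.65, SE 0.12, adjusted p = 0.030), and Set was at −0.37 (SE 0.09, adjusted p = 0.052). Their proteins are parts of the SET complex, on which granzyme A acts, and they are also known in every cell, Nme1 as a nucleoside diphosphate kinase and Hmgb2 as a chromatin protein abundant in dividing cells. The call was lost without 1 of 3 libraries for Nme1 (Young tumor 1, Old tumor 2 or Old tumor 3) and without 1 of 7 for Hmgb2 (Young tumor 1, 2 or 4, or Old tumor 2, 3, 5 or 6). Nme1 was also not called on TPM.

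In edgeR none of the other pathway lists held a called gene. An unadjusted p under 0.05 was reached by 0 death ligands and receptors and by 3 genes in each of the other 3 lists, of 14, 11 and 14 tested, against 21.1% of all genes, and DESeq2 called 1 gene, Ido1. For 8 tested death ligands and receptors the median log2 fold change was −0.08, with the death receptor gene Fas at −0.47 (SE 0.27), the lymphotoxin gene Ltb at −0.56 (SE 0.36) and Tnfrsf1a at 0.11 (SE 0.08). For 14 transcription factors of cytotoxic lymphocytes it was −0.07, with Runx3 at −0.50 (SE 0.18), Stat5a at 0.41 (SE 0.16) and Id2 at −0.21 (SE 0.09). For 11 cytokines and receptors that induce cytotoxicity it was −0.08, with the interleukin 12 receptor gene Il12rb1 at −0.86 (SE 0.29), Il15 at 0.40 (SE 0.17) and Il18rap at −0.24 (SE 0.10). For the 14 genes of the interferon gamma receptor pathway it was −0.31, with Ido1 at −1.02 (SE 0.37), Irf1 at −0.35 (SE 0.15) and the kinase gene Jak1 at 0.18 (SE 0.07). The smallest edgeR adjusted p among the 12 genes just named was 0.118, for Il12rb1. In young libraries Runx3, Stat5a and Id2 averaged 9.23, 13.2 and 167 CPM, against 6.29 CPM for Cd8a. The list of transcription factors may thus not follow cytotoxic lymphocytes alone, and which cells held the transcripts of these lists was not tested.

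**Figure D5:**
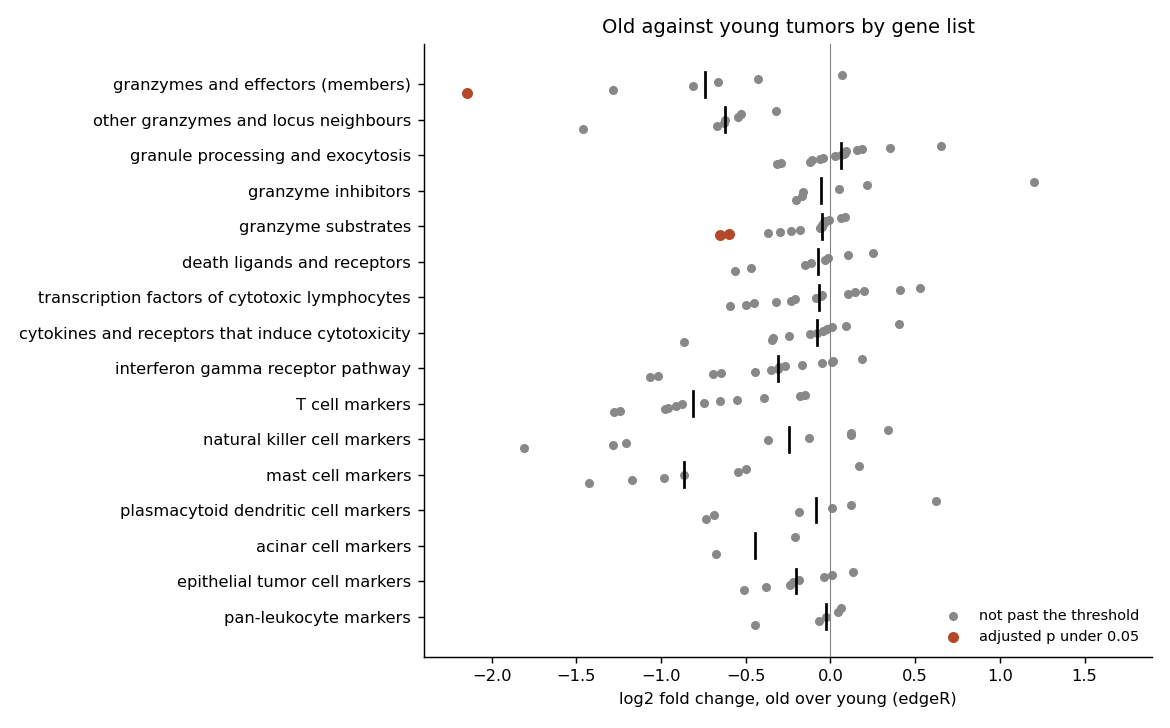
The log2 fold change, old over young (edgeR), of every tested gene among the members (top row) and the 15 lists, 1 point per gene, with the list's median as a black line and genes at an adjusted p under 0.05 in red. Gzma, Nme1 and Hmgb2 are the called genes, and the 12 T cell markers all lie left of 0, with a median of −0.81.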

How the data were processed

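The deposited table gives, for 47643 genes in 6 Old tumor and 6 Young tumor libraries, expected counts and TPM (length-corrected abundances with the same sum in every library), both made by the authors. Per the submitters' processing notes, the tools were cutadapt 2.3 (trimming), STAR 2.7.0d (alignment, mm10) and RSEM 1.3.1 (quantification). Annotation and strand setting: not given in the sources used here. Deposited expected counts were whole for 86.0% to 88.2% of entries in a library (tolerance 0) and were rounded for testing. The deposited TPM values served to compare levels between genes.

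Old and young tumors were compared in edgeR 4.0.16 under R 4.3.3, with TMM scaling, filterByExpr, quasi-likelihood F test, two-sided, Benjamini-Hochberg over 16013 genes, threshold 0.05, no replicate block. SE is the log2 fold change over the square root of F. CPM is TMM-scaled and log2 CPM has a prior count of 2. Correlations used scipy 1.17.1, over all 720 orders of 6 libraries. The edgeR step was tested on simulated data.

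The 10 members and 15 gene lists were chosen with earlier results of these data known. Of 170 listed symbols 169 were matched, and Vamp7 was not. Named genes are all members, the 3 of each described list with the smallest p, the 5 most like each tested member of at least 1 CPM, and the tissue checks. A gene that this rule names is not reported here. Cd3e was such a check, and the cluster genes set beside Gzme were chosen by position. Coordinates and transcripts came from GENCODE M21 (GRCm38), promoters from RefSeq. No batch is labelled. Alternatives covered scaling, tool (DESeq2 1.42.0), filter, unit with limma 3.58.1, gene length, a replicate block and left-out libraries.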

Additional observations from a re-analysis of the deposited data

Results flagged for a closer look

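In a check of 20 sets of values (10 genes in each age) and 4 sets of marker scores, 2 values stood far from the other libraries of their age by Dixon's test for 6 samples, of which chance flags about 1 in 20. Gzmk in Young tumor 6 was at 0.822 CPM (19 counts), and the next young library was at 0.301 CPM. Prf1 in Old tumor 3 was at 1.61 CPM (38 counts), and the next old library was at 0.497 CPM. Both are genes that did not pass the filter on low counts.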

How the results depend on the processing

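The 362 genes called became 1433 with DESeq2, 151 without a filter, 111 with each library's length trend removed, 1 with a replicate block and 742 without Old tumor 1 and Old tumor 5 (a setting chosen after seeing the data), and 2 to 1106 with 1 library left out. The share of calls that were higher in old tumors was 35.1%, against 51.5% with library totals alone, 85.8% on TPM with a pseudocount of 1 (all genes' median 0.13), 87.6% with a pseudocount of 0.1 (median 0.15), and 13.5% with the length trend removed. The count of members called was 1, 0 with the replicate block and 0 to 1 with 1 library left out. Gzma was at −2.34 with the replicate block (edgeR adjusted p = 0.057), and at edgeR adjusted p = 0.044 with the length trend removed. Same-numbered old and young libraries correlated at −0.23 to 0.14, and those numbered 3 were each other's best match. The labels do not say whether the numbers pair the libraries, and such correlations cannot settle it. The 2 genes called over all 15 lists became 4 with RLE scaling, upper-quartile scaling or the stricter filter, 12 with DESeq2, 0 with the replicate block, 8 without Old tumor 1 and Old tumor 5, and 0 to 16 with 1 library left out. The causes were not tested.

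Signs turned for Gzmd (−0.18 to 0.34 with 1 library left out), Cela1 (0.019 and 0.022 on TPM with pseudocounts of 1 and 0.1, −0.32 to 0.17 with 1 left out), Ptprc (0.066 and 0.070 on the same scales, −0.25 to 0.041 with 1 left out), Itgb2 (−0.23 without Old tumor 1 and Old tumor 5, −0.20 to 0.13 with 1 left out), Serpina3n (−0.34 without those libraries) and Tcf4 (−0.12 with the length trend removed). Of the 24 relations, 0 passed on log2(TPM + 1). There r turned to −0.068 for Gzmc with the T cell score in young and to −0.072 with the natural killer cell score in old libraries, and to −0.047 for Gzmd with the T cell score in young libraries at a prior count of 0.5. Without the 2 farthest libraries r turned in 10 relations. With the T cell score these were Gzma (−0.50), Gzmb (−0.091), Gzmc (−0.49) and Nkg7 (−0.17) in young libraries and Gzmc (0.31) and Gzme (−0.34) in old ones. With the natural killer cell score these were Gzma (−0.31), Gzmc (−0.49) and Gzme (−0.87) in old libraries and Gzme (0.89) in young ones. Depth limits Gzmk, Prf1, Gzmf and Ifng, with 37.0 to 129 counts each over all 12 libraries.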
